A study of Mus musculus with 12 samples.

Results

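ATAC-seq, which marks open chromatin by where a transposase can cut DNA, was run on 12 libraries of mouse cells whose cell type label is MSCLCs and whose series title speaks of bone mesenchymal stem cells. The regions described here were called in the library titled WT_2_1 (Wt replicate 2) and in none of the other 11. Peaks of all 12 libraries on chromosomes 1 to 19 and X were merged where they overlapped by at least 1 bp, which gave 153346 regions, and 22405 of them were private to Wt replicate 2. They made up 14.6% of all regions and 38.1% of the 58847 regions of that library (95% exact binomial interval 37.7 to 38.5%, counting error only). These regions were selected on the peak calls of all 12 libraries, so every value below is a description of 1 library beside the other 11, with no test and no error between replicates.

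The genotype labels gave the groups Wt (4 libraries), Wt_IGF1 (1), EF (4), EF_IGF1 (2) and EF_IGF1_xeno (1). The series title names EWS::FLI1 and IGF-1. What the group names stand for, the strain and age of the mice, and whether replicates came from separate animals have no entry in the labels used here. The Wt libraries carry the titles WT_1_1 (replicate 1), WT_2_1 (replicate 2), BM_unt (replicate 3) and S_203_0 (replicate 4). Flowcell BSF_0654 carried Wt replicates 1 and 2 and EF replicates 1 and 2, and BSF_1013 carried the other 8 libraries.

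Promoters and enhancers in use lie in open chromatin, and genes that a cell type depends on often have many such sites along the gene and around it. Bone marrow holds mesenchymal stromal cells beside blood cells of every lineage, among them macrophages, which take up particles and stick to culture plastic, and osteoclasts, which resorb bone and arise from the same precursors. PU.1 (encoded by Spi1) and RUNX1 are transcription factors that open chromatin in blood cells, and PU.1 is required for macrophages.

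The promoters of 6 genes known from leukocytes or macrophages are shown because each was overlapped by a private region. They are Ptprc (CD45, a phosphatase on the surface of blood cells), Itgam (CD11b, an integrin chain of myeloid cells), Mrc1 (the macrophage mannose receptor), C1qb (a chain of complement C1q, made by macrophages), Cd53 (a leukocyte tetraspanin) and Dock2 (an exchange factor for Rac in blood cells). Each sequence runs 5′ to 3′ on the gene's strand from 250 bases before to 50 bases after the gene start, from RefSeq on GRCm38.p6, and capitals mark the core letters of the PU.1 motif, GAGGAA, or TTCCTC where it lies on the other strand.
Ptprc (chr1:138175077-138175376, - strand): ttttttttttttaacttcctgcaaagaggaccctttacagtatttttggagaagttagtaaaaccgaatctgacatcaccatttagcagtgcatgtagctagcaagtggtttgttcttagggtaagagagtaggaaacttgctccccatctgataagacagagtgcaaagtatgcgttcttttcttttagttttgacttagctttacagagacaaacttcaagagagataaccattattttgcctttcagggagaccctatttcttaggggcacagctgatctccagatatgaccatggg
Itgam (chr7:128062390-128062689, + strand): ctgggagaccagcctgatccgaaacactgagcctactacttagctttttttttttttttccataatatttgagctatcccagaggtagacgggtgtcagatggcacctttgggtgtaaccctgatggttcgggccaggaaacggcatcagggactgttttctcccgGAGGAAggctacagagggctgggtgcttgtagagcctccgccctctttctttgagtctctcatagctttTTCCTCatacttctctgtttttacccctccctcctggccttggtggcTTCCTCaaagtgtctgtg
Mrc1 (chr2:14229164-14229463, + strand): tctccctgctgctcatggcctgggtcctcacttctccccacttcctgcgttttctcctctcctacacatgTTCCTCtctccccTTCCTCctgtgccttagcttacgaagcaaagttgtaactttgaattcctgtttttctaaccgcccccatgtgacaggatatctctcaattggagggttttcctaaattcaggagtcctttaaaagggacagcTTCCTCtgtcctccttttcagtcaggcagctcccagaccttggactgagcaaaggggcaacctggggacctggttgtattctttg
C1qb (chr4:136886151-136886450, - strand): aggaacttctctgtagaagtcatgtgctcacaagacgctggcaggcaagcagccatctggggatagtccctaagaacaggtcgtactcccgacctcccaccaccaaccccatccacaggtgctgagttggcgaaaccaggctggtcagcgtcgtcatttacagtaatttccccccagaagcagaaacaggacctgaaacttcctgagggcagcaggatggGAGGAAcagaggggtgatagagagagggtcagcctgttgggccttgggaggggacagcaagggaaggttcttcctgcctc
Cd53 (chr3:106790100-106790399, - strand): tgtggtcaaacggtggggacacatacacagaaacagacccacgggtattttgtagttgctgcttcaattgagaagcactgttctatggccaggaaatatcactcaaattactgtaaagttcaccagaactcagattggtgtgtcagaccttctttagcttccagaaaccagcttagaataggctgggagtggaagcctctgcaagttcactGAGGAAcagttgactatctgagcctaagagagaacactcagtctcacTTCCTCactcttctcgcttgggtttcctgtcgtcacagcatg
Dock2 (chr11:34783856-34784155, - strand): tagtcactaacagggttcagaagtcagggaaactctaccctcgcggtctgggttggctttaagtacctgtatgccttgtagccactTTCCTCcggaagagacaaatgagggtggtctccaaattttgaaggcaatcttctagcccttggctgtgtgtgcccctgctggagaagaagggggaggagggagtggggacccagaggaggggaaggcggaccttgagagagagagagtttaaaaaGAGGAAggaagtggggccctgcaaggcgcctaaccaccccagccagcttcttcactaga
The Itgam and Mrc1 windows held the letters 3 times each, those of Cd53 and Dock2 2 times each and that of C1qb once, and the Ptprc window did not hold them. The peak summits of Wt replicate 2 lay at these positions relative to the gene start, where a negative position is before it: -172 for Ptprc, 33 for Itgam, -169 for Mrc1, -123 for C1qb, 19 for Cd53 and 62 for Dock2. A match describes the letters only, and binding was not measured.

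The 2 miRNA genes below are known for blood cells, and both had private regions within 10 kb. Mature sequences are from RefSeq, with the seed (bases 2 to 8) in capitals.
mmu-miR-223-3p (chrX:96242884-96242905, + strand): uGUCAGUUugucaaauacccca
mmu-miR-223-5p (chrX:96242842-96242864, + strand): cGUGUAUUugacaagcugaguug
mmu-miR-142a-3p (chr11:87756903-87756925, + strand): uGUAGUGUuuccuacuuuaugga
mmu-miR-142a-5p (chr11:87756867-87756887, + strand): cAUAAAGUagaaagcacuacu
Both regions near Mir223, a miRNA of myeloid cells, were private to Wt replicate 2, so no other library had a call there. Of the 4 regions near Mir142, a miRNA of all blood lineages, 2 were private and 3 were called in Wt replicate 2, against 0 to 2 called in each other library. Mir146, of innate immune cells, had 1 private region of 3 and Mir126a, of endothelium and blood stem cells, 1 of 5. Other blood miRNAs had none: Mir155, of activated macrophages and lymphocytes, had 2 regions, neither called in Wt replicate 2, against 0 to 2 called in each other library, the erythroid Mir144 and Mir451a had 1 region, which was not private, and Mir181b-1 had no region. None of the 5 regions near Mir199a-2 and Mir214, miRNAs of mesenchymal cells, was private. A private region lay within 10 kb of 245 of 1005 hairpins in the table (24.4%), so a single private region near a miRNA was common. The 4 mature forms shown have 4 different seeds.

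The private regions of Wt replicate 2 were more numerous than those of any other library by the same rule. Wt replicate 1 had 19 (0.255% of its regions), Wt replicate 3 had 1245 (2.3%), Wt replicate 4 had 5144 (7.68%) and the Wt_IGF1 library 7956 (10%). EF replicates 1 to 4 had 3614 (7.25%), 226 (0.884%), 3657 (7.25%) and 4358 (6.71%), the EF_IGF1 libraries 3621 and 2974 (6.42% and 4.91%) and the EF_IGF1_xeno library 442 (1.08%). Together the other 11 libraries had 33256 private regions. The number of peaks did not set Wt replicate 2 apart: it listed 60526, against 7748 (Wt replicate 1) to 83718 (Wt_IGF1) in the others. Its genome background was 1.78 reads, against 0.574 (Wt replicate 3) to 2.29 (Wt replicate 1) in the others. This background is the reads expected at a site from the whole genome and a stand-in for depth. With every list limited to its 20000 strongest peaks, the private share was 33.0% in Wt replicate 2, against 2.59 to 9.16% in the other 10 libraries with that many. Wt replicate 1, with 7748 peaks in all, had 2.09% and was not brought to an equal length by this limit. At 7000 peaks each, a length chosen after seeing the data, it was 23.8% in Wt replicate 2, against 2.69 to 20.3% in the others, and Wt replicate 1 had the highest of these.

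**Figure D1:**
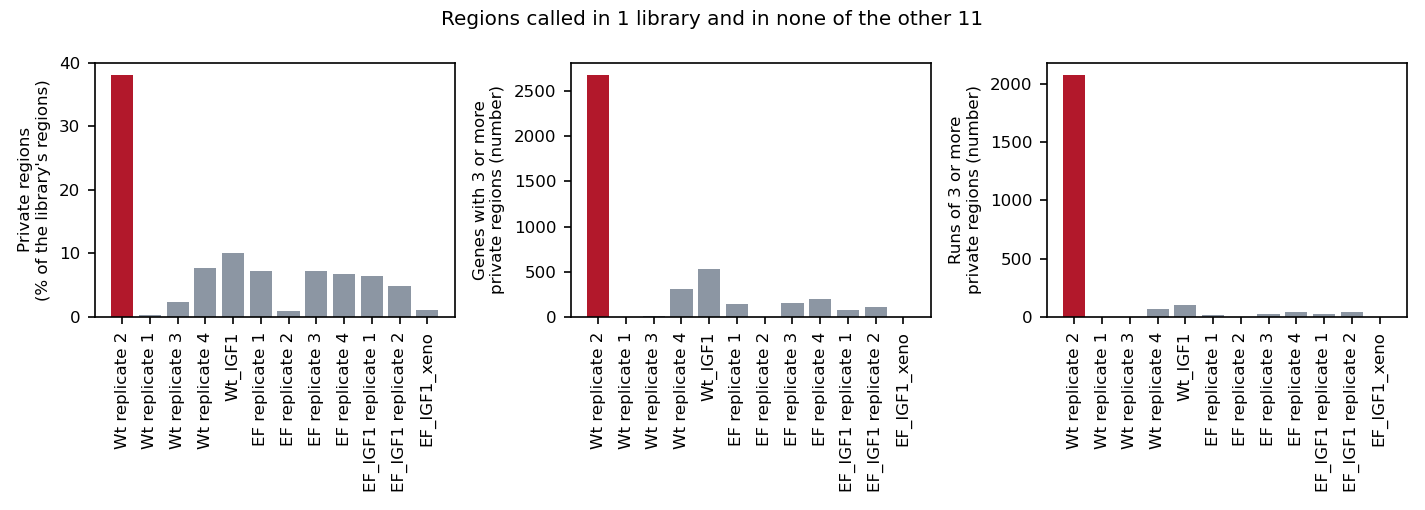
Private regions as a percentage of each library's regions (left), genes with 3 or more private regions (middle) and runs of 3 or more neighbouring private regions (right), each as 1 bar for each of 12 libraries, with Wt replicate 2 in red. Wt replicate 2 stands at 38.1%, 2676 genes and 2077 runs, and no other library exceeds 10%, 526 genes or 105 runs.

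Sharing of the regions of Wt replicate 2 was high at both ends. Beside the 22405 regions with no other library, 3348 were shared with exactly 1 other, between 2056 and 3806 with each number from 2 to 9, 6961 with 10 and 5784 with all 11. The 3348 regions just outside the rule were shared with Wt_IGF1 (1031), Wt replicate 4 (578), EF replicate 4 (412), Wt replicate 1 (314) and, in 6 to 221 regions each, the remaining 7 libraries. Wt replicate 1, on the same flowcell, had 99.4% of its 7464 regions called in Wt replicate 2, against 38.9 to 59.8% for the other 10 libraries. The reverse set existed too: 3337 regions were called in all 10 libraries with over 20000 peaks beside Wt replicate 2 and were not called in it, against 12288 called in those and in it.

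Private peaks were weaker and narrower than the rest of the same list. Their median fold over local background, as the authors' caller gave it, was 6.11, against 7.1 for the other peaks of Wt replicate 2. The median −log10 p was 14.1 against 21.8, the median number of reads at the summit 24 against 37, and the median width 326 against 436 bp. With the peaks split by −log10 p into 10 bins of equal size, 8.84% were private in the bin with the highest values, and the share was larger in each following bin, up to 50.5% in the last. Private peaks still numbered 535 of 6050 in the first bin, where −log10 p was 50.3 or more.

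**Figure D2:**
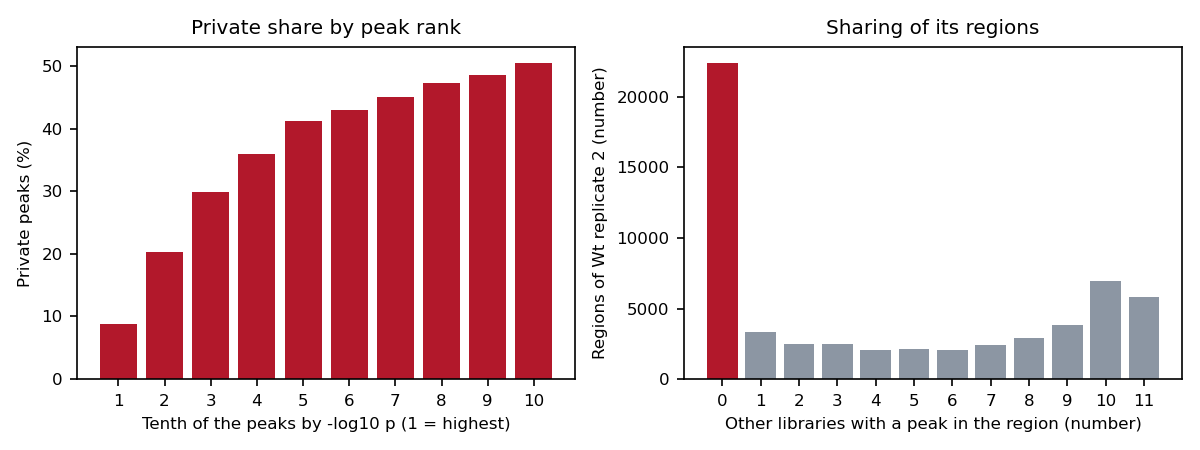
Left, the percentage of private peaks in each of 10 equal bins of the peaks of Wt replicate 2, ordered from the highest to the lowest −log10 p. Right, the number of regions of Wt replicate 2 by how many other libraries have a peak in them, with the 22405 private regions at 0 in red. The left bars climb from 8.84 to 50.5%, and the right bars are lowest between 2 and 7 others.

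The private regions mostly lay away from gene ends. In 5.69% of them the summit lay within 1 kb of either end of a coding gene, against 29.2% for the other regions of Wt replicate 2. In the regions private to other libraries that share ran from 2.74 to 7.84%, so a low share at gene ends was shared by the private regions of all libraries. Of the private regions, 59.8% overlapped a gene, 33.7% lay outside one within 100 kb, and 6.52% had no gene within 100 kb. Per chromosome, the private share of the regions of Wt replicate 2 ran from 34.2% on chromosome 11 to 42.4% on chromosome 12, with 38.4% on X.

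All 4 marker genes of blood and macrophages had private regions. Ptprc, on chromosome 1, had 8 private regions of 18, and 13 were called in Wt replicate 2, against 0 to 7 in each other library. Its private region with the highest −log10 p lay inside the gene at chr1:138158866-138159313 (fold 8.89, −log10 p 39.4, 60 reads at the summit). Adgre1, which encodes the macrophage surface protein F4/80, had 5 private regions of 6. All 6 were called in Wt replicate 2, against 1 in Wt_IGF1 and 0 in the other 10 libraries. Itgam had 7 private regions of 11, with 9 called in Wt replicate 2, against 0 to 3 in the others. Csf1r, the receptor for the growth factor CSF1 that macrophages need, had 2 private regions of 8, with 6 called in Wt replicate 2, against 1 to 4 in the others. For Ptprc, Adgre1, Itgam and Csf1r alike, Wt replicate 2 had more called regions than any other library. These counts include its private regions, which by the rule no other library could have, so the lead is no evidence of its own. In bulk libraries like these, fewer cells of a type and less open chromatin in each cell cannot be told apart.

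Genes known from all leukocytes had the highest share of private regions of the 21 marker and function lists. A region was given to the nearest protein-coding gene within 100 kb, and a private region lay nearest to 8365 of 21631 such genes (38.7%). Over all genes, 15.3% of regions were private. For the pan-leukocyte list it was 49.3% (141 of 286 regions, at 27 of 28 genes). For innate receptors, which bind microbes and debris, it was 46.0% (127 of 276, at 34 of 35 genes), and for macrophages and monocytes 41.9% (114 of 272, at 32 of 35 genes); these lists share 11 genes. Other libraries had at most 10 private regions at each of these 3 lists. The 12 blood cell lists together had 436 private regions of 1602 (27.2%), at 137 of 233 genes, against 0 to 66 private to each other library. Counted among the called regions of Wt replicate 2 alone, 66.8% of pan-leukocyte, 64.8% of innate receptor and 60.6% of macrophage and monocyte regions were private, against 37.4% over all genes.

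Counting every called region, private or not, Wt replicate 2 had the highest share at these lists. By the rule only it could call the private regions: 49.3% of pan-leukocyte, 41.9% of macrophage and monocyte and 46.0% of innate receptor regions. They are part of these counts, so its lead is no evidence of its own. Wt replicate 2 called 73.8% of the pan-leukocyte regions, against 4.55% (Wt replicate 1) to 31.5% (Wt_IGF1) in the others. It called 69.1% of the macrophage and monocyte regions, against 7.72 to 36.8%, and 71.0% of the innate receptor regions, against 3.99 to 33.7%. Over the regions of all genes it called 41.0%, against 5.37 to 52.5% in the others, and thus lay within their range.

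**Figure D3:**
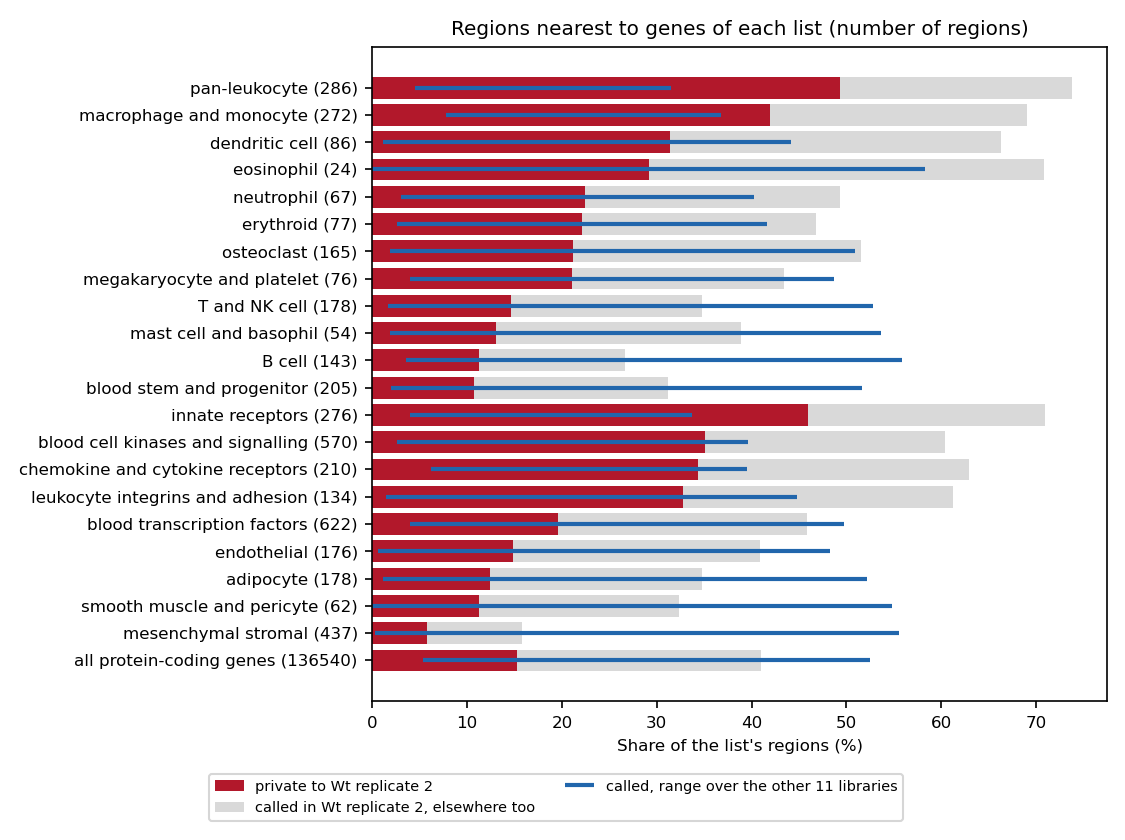
Share of the regions nearest to the genes of each list that were private to Wt replicate 2 (red) or called there and elsewhere (grey), with the range of shares called in the other 11 libraries as a blue line; the number of regions of each list is in brackets. With the red part included, the bars of the pan-leukocyte, macrophage and innate receptor lists pass the blue lines. The mesenchymal bar ends at 15.8%.

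Among pan-leukocyte genes, Lcp1 (L-plastin, which bundles actin in leukocytes) had 14 private regions of 15. All 15 were called in Wt replicate 2, against 1 in each of Wt replicates 1, 3 and 4 and Wt_IGF1 and 0 in the other 7 libraries. Dock2 had 13 private of 15, all 15 called in Wt replicate 2, against 1 each in Wt_IGF1 and EF replicate 3 and 0 in the other 9. Lcp2, the adaptor SLP-76, had 9 private of 15, with 12 called in Wt replicate 2, against 0 to 3 in the others. Runx1 had 13 private of 55, but it was open widely: 27 were called in Wt replicate 2, against 3 to 27 in the others. Spi1, named here outside the naming rule because of the motif above, had 7 private of 12, with 10 called in Wt replicate 2.

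Among macrophage genes, the scavenger receptor gene Msr1 had 9 private regions of 10. In Wt replicate 2, 9 of the 10 were called, against 0 or 1 in each other library. Mrc1 had 9 private of 17, with 11 called in Wt replicate 2, against 0 to 5. Marco, a scavenger receptor for bacteria, had 8 private of 13, with 10 called in Wt replicate 2, against 0 to 4. Irf8, a transcription factor of monocytes and dendritic cells, had 7 private of 23, with 14 called in Wt replicate 2, against 1 to 10. Cd68, Lyz2 and Ly6c2 were the 3 of 35 macrophage and monocyte genes with no private region. The scavenger receptor Cd36, of the innate receptor list, had 9 private of 15, with 12 called in Wt replicate 2, against 0 to 4.

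Signalling and receptor genes of blood cells also had many private regions. The kinase and signalling list had 35.1% private (200 of 570 regions, at 26 of 29 genes), led by Dock10 (17 private of 42), Vav3 (16 of 47), Elmo1 (15 of 66) and Dock2, all regulators of Rac-type GTPases. At Dock10, 25 regions were called in Wt replicate 2, against 0 to 16 in the others. The chemokine and cytokine receptor list had 34.3% private (72 of 210), with 8 of 12 at Il21r, 6 of 12 at Csf3r and 6 of 14 at Il4ra, the receptor genes for IL-21, G-CSF and IL-4. The integrin and adhesion list had 32.8% private (44 of 134), and at Itgax (CD11c) all 4 regions were private. Blood transcription factors had 19.6% private (122 of 622), with 11 of 31 at Runx3, 8 of 36 at Mitf and 7 of 20 at Maf. Counting every called region did not set Wt replicate 2 apart at this list. It called 45.8% of the list's regions, against 4.02 to 49.8% in the others, and 19 regions at Mitf, against 0 to 20. Of these 5 function lists, the transcription factor list shared 3 genes with the pan-leukocyte list, the integrin list 3 and the kinase list 5.

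Several other blood cell lists also exceeded the 15.3% over all genes. Dendritic cell genes had 31.4% private (27 of 86 regions, at 11 of 15 genes), with Itgax and the class II activator Ciita at 4 each. Eosinophil genes had 29.2% (7 of 24, at 3 of 9 genes), neutrophil genes 22.4% (15 of 67, at 8 of 20), erythroid genes 22.1% (17 of 77, at 7 of 19), osteoclast genes 21.2% (35 of 165, at 13 of 16) and megakaryocyte and platelet genes 21.1% (16 of 76, at 6 of 16). Private regions included, Wt replicate 2 called 66.3% of the dendritic cell regions, against 1.16 to 44.2% in the others. It called 70.8% of the eosinophil regions, against 0 to 58.3%. Its share for macrophages and monocytes was 69.1%. Promoters gave another order. The eosinophil list, with only 24 regions, had 8 genes with a promoter window, and 0 were called in Wt replicate 2. For dendritic cells it was 6 of 11 (54.5%) and for macrophages and monocytes 19 of 25, beside 54.4% over all genes. For osteoclasts it was 4 of 8, for neutrophils 4 of 19, for erythroid genes 2 of 15 and for megakaryocytes and platelets 1 of 12. Wt replicate 2 also called more neutrophil, erythroid and osteoclast regions than any other library, but by small margins. These counts include its 15, 17 and 35 private regions, which by the rule no other library could call. It called 33 neutrophil regions, against 27 in Wt replicate 4. Against Wt_IGF1, the next library, it called 36 and 32 erythroid and 85 and 84 osteoclast regions. The megakaryocyte and platelet list drew 9 of its 16 from Vwf, which endothelial cells also use. Of the osteoclast private regions, 9 were at Atp6v0d2, a proton pump subunit, 4 each at Nfatc1 and Tnfrsf11a (RANK), and 1 each at Ctsk, Acp5 and Tcirg1. For neutrophils, 6 of 15 were at Csf3r, 3 at Ltf and 1 each at Mpo, Ctsg, Mmp8, Fpr1, Cebpe and Gfi1. S100a8, S100a9, Ly6g and Elane had no private region. Of these, S100a8, S100a9 and Ly6g had 1, 2 and 1 regions called in Wt replicate 2 and elsewhere.

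Lymphocyte, mast cell and stem cell lists lay below the share over all genes when counted among the regions of all libraries. T and NK cell genes had 14.6% private (26 of 178, at 13 of 30 genes), mast cell and basophil genes 7 of 54 (at 5 of 13), B cell genes 11.2% (16 of 143, at 6 of 21) and blood stem and progenitor genes 10.7% (22 of 205, at 10 of 15). Counted among the called regions of Wt replicate 2 alone, the order turned for lymphocytes, with 41.9% of T and NK cell and 42.1% of B cell regions private, against 37.4% over all genes, while mast cell and basophil (33.3%) and stem and progenitor regions (34.4%) stayed below. Wt replicate 2 called 26.6% of B cell regions, against 3.5 to 55.9% in the others, and 6 libraries called more. Cd79a and Cd79b were nearest to no region of any library, and Pax5 and Ebf1 had no private one. Ms4a1 (CD20), by contrast, had all 6 of its regions private. Cd3e, Cd3d, Lck and Zap70 had no private region. Wt replicate 2 did call the 1 region at each of Cd3e, Cd3d and Lck, and 2 of 3 at Zap70. Cd8a, Cd8b1 and Cd3g were nearest to no region of any library. Cd4 had 3 private of 4, Cd28 4 of 19 and Klrb1c 5 of 12.

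The label's cell type was checked against mesenchymal stromal genes, which had the lowest private share of all lists among the regions of all libraries, and few calls in Wt replicate 2. Of 437 regions at 25 mesenchymal stromal genes, 25 were private (5.72%), 7 of them at Runx2. Among the called regions of Wt replicate 2 alone, 36.2% were private, close to the 37.4% over all genes and above 5 other lists (mast cell, stem and progenitor, smooth muscle, adipocyte and endothelial). Wt replicate 2 called 69 of the 437 (15.8%), against 1 (0.229%) in Wt replicate 1, 181 (41.4%) in Wt replicate 3, 220 (50.3%) in Wt replicate 4 and 243 (55.6%) in Wt_IGF1. The EF, EF_IGF1 and EF_IGF1_xeno libraries called 77 to 205 of them (17.6 to 46.9%). Only Wt replicate 1, with the fewest peaks of all, called fewer than Wt replicate 2. The 0.229% of Wt replicate 1 also lay below the 5.37% it called over the regions of all genes. The 15.8% of Wt replicate 2 likewise lay below its 41.0% over all genes. Wt replicate 1 called 7.72% of the macrophage and monocyte regions. A low share of mesenchymal calls was thus not particular to Wt replicate 2. Smooth muscle and pericyte genes had 11.3% private (7 of 62), adipocyte genes 12.4% (22 of 178, 9 of them at Pparg, which macrophages also express) and endothelial genes 14.8% (26 of 176). The part that other cells in the culture, the flowcell or the library preparation have in the private regions was not tested.

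Private regions also covered promoters of leukocyte and macrophage genes. The promoter table held windows for 17274 of the protein-coding genes. Of these genes, 9402 (54.4%) had one called in Wt replicate 2, against 4822 to 9636 in each other library. In 340 genes (1.97%) one was called in Wt replicate 2 and in no other library, while no other library had more than 141. Of the 20 pan-leukocyte genes with a window, 19 were called in Wt replicate 2, against 2 or 3 in each other library, and 13 were called nowhere else, among them Ptprc, Cd53, Dock2, Laptm5 and Was. Of the 25 macrophage and monocyte genes, 19 were called in Wt replicate 2, against 1 to 7, and 11 nowhere else, among them Itgam, C1qb, C1qc, Fcgr1, Cx3cr1 and Mrc1. The promoters of Fermt3 and Fcgr3 were called in Wt replicates 2 and 1 and in no other library. Of 28 innate receptor genes, 24 were called in Wt replicate 2, against 1 to 7, and 16 nowhere else. Of 16 B cell genes, 3 were called in Wt replicate 2, against 0 or 1 in each other library, and 1 nowhere else. Of 23 T and NK cell genes, 5 were called in Wt replicate 2, against 0 to 2, and 4 (17.4%) nowhere else. Of 14 mesenchymal genes, 5 were called in Wt replicate 2, against 0 to 11. The promoters of Col1a2, Runx2 and Twist2 were called in 10 libraries and in neither Wt replicate 2 nor Wt replicate 1.

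**Figure D4:**
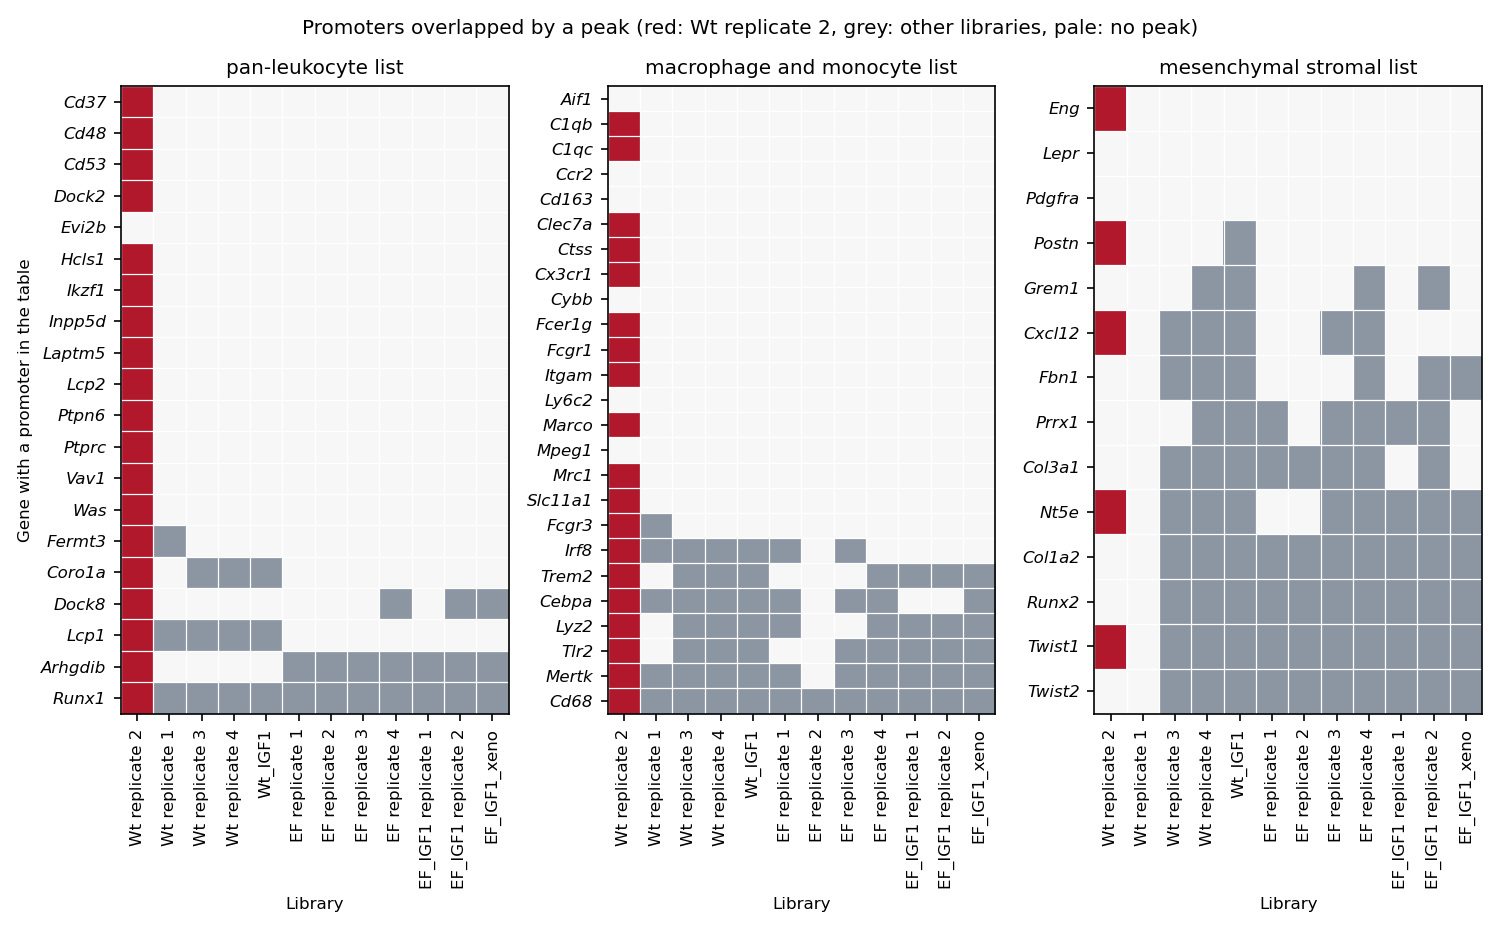
Promoter windows of the pan-leukocyte, macrophage and mesenchymal genes in the promoter table (rows) overlapped by a peak in each of 12 libraries (columns), in red for Wt replicate 2 and grey for the others. Of the pan-leukocyte rows 19 of 20 are red with 13 red alone, and the mesenchymal panel has 5 red cells of 14.

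The PU.1 letters shown above were more frequent in private promoters than in any other set of windows. GAGGAA, on either strand, was in 50.4% of the 379 windows that a private region overlapped, against 25.1% of the 10566 called in Wt replicate 2 and elsewhere, 28.8% of the 8173 called in no library and 27.2% of all 21045. The RUNX letters TGTGGT were in 22.7%, against 11.3%, 18.9% and 14.7% in those sets. The IRF motif was in 6.07%, against 2.84%, 3.96% and 3.38%. For CEBP (TTGCNNAA, 12.1%), AP-1 (TGANTCA, 8.97%) and the letters AGATAA of GATA factors (10.6%) the share in private windows lay between those of windows called elsewhere too (7.51%, 4.51%, 4.97%) and of windows called in no library (13.8%, 9.29%, 16.2%). TEAD letters (GGAATG) were in 8.97% of private windows, against 10.6%, 16.4% and 13.5%, and E-box letters (CANNTG) in 81.5%, against 60.4%, 79.4% and 69.0%. All motifs were counted on both strands, and matches of different motifs may overlap. Base composition moved with these sets: the median GC was 53.7% in private windows, against 62.3% in those called elsewhere too, 48.3% in those called in no library and 56.7% in all. Its part in the motif shares was not tested.

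Private regions lay in clusters along single genes. Of the genes with a private region, 2676 had 3 or more, 1090 had 5 or more and 187 had 10 or more, with a median of 2. In the other libraries 0 to 526 genes had 3 or more private regions of that library. The highest counts were at long genes. Among the first 15, Lpp and Pde4d had 25 each, Fat3 22, Asap1, Prex1 and Snx29 20 each, Arid1b, Etv6, Nav2 and Nedd4l 19 each, and Foxp1, Rad51b, Rptor and Tns3 18 each. These 15 genes had a median length of 436235 bp, against 17329 bp over all protein-coding genes. Regions of these genes were called in other libraries too, and a high count was not always a high share. At Rad51b 18 of 102 regions were private and at Foxp1 18 of 101, beside 15.3% over all genes. At Rad51b Wt replicate 2 called 29 regions, against 0 to 58 in the others, with a median of 37. At Lpp, which encodes a LIM protein of focal adhesions, 46 of 112 regions were called in Wt replicate 2, against 1 to 58 in the others. At Fat3, an atypical cadherin gene, 30 of 38 regions were called in Wt replicate 2, against 0 to 9. At Prex1, an exchange factor for Rac in leukocytes, 32 of 49 were called in Wt replicate 2, against 2 to 16.

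Few genes had nearly all of their regions private. Among 377 named genes with at least 8 private regions, 4 had at least 75% of their regions private: Lcp1, Msr1, Dock2 and the potassium channel gene Kcnk13, with 12 private of 16. Of these 4, 3 were in the blood or function lists. Another 6 named genes had 5 or more private regions and no other region. They were Lilrb4a, an inhibitory receptor gene of myeloid cells, with 7, Ms4a1, Fgf13 and Plpp4 with 6 each, and B3galt5 and Cd5l, which encodes a protein secreted by macrophages, with 5 each.

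Neighbouring private regions formed 2077 runs, defined as 3 or more with gaps of at most 20 kb, against 0 to 105 runs in the other libraries. They held 8467 of the private regions (37.8%). Of the runs, 548 had 5 or more regions and 35 had 10 or more, while the longest in any other library had 6. Blood and function list genes, 1.47% of protein-coding genes, stood in 6.16% of all runs (128 of 2077), in 13.1% of runs of 5 or more (72 of 548) and in 28.6% of runs of 10 or more (10 of 35). A run can lie at several genes, so a share of runs and a share of genes are unlike measures. The part that run length has in the larger shares was not tested. The longest had 16 regions, at Kcnk13 and its neighbour Tdp1 (chr12:99917817-100027017) and at Sema4d (chr13:51687120-51837588), a semaphorin gene of lymphocytes and other cells.

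Several of the other 7 runs of 13 or more lay at immune receptor genes. A run of 15 covered Slamf7, Ly9 and Cd48, neighbouring receptor genes of the SLAM family (chr1:171594186-171687740). All 17 regions in its span were called in Wt replicate 2, against 1 in each of Wt replicate 4 and EF replicate 4 and 0 in the other 9. A run of 15 lay at Il10ra, the IL-10 receptor gene, Tmprss13 and BC049352 (chr9:45231702-45314319), with 17 of 18 regions called in Wt replicate 2, against 0 to 3. A run of 14 lay at Il21r and Il4ra (chr7:125540801-125637144), with 19 of 24 called in Wt replicate 2, against 0 to 8. A run of 13 lay at Lcp1 and Lrrc63 (chr14:75121678-75196007), with all 14 called in Wt replicate 2, against 0 or 1. The remaining ones were at Zfp36l2 (15), Chn2 (13) and Lpp (13).

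**Figure D5:**
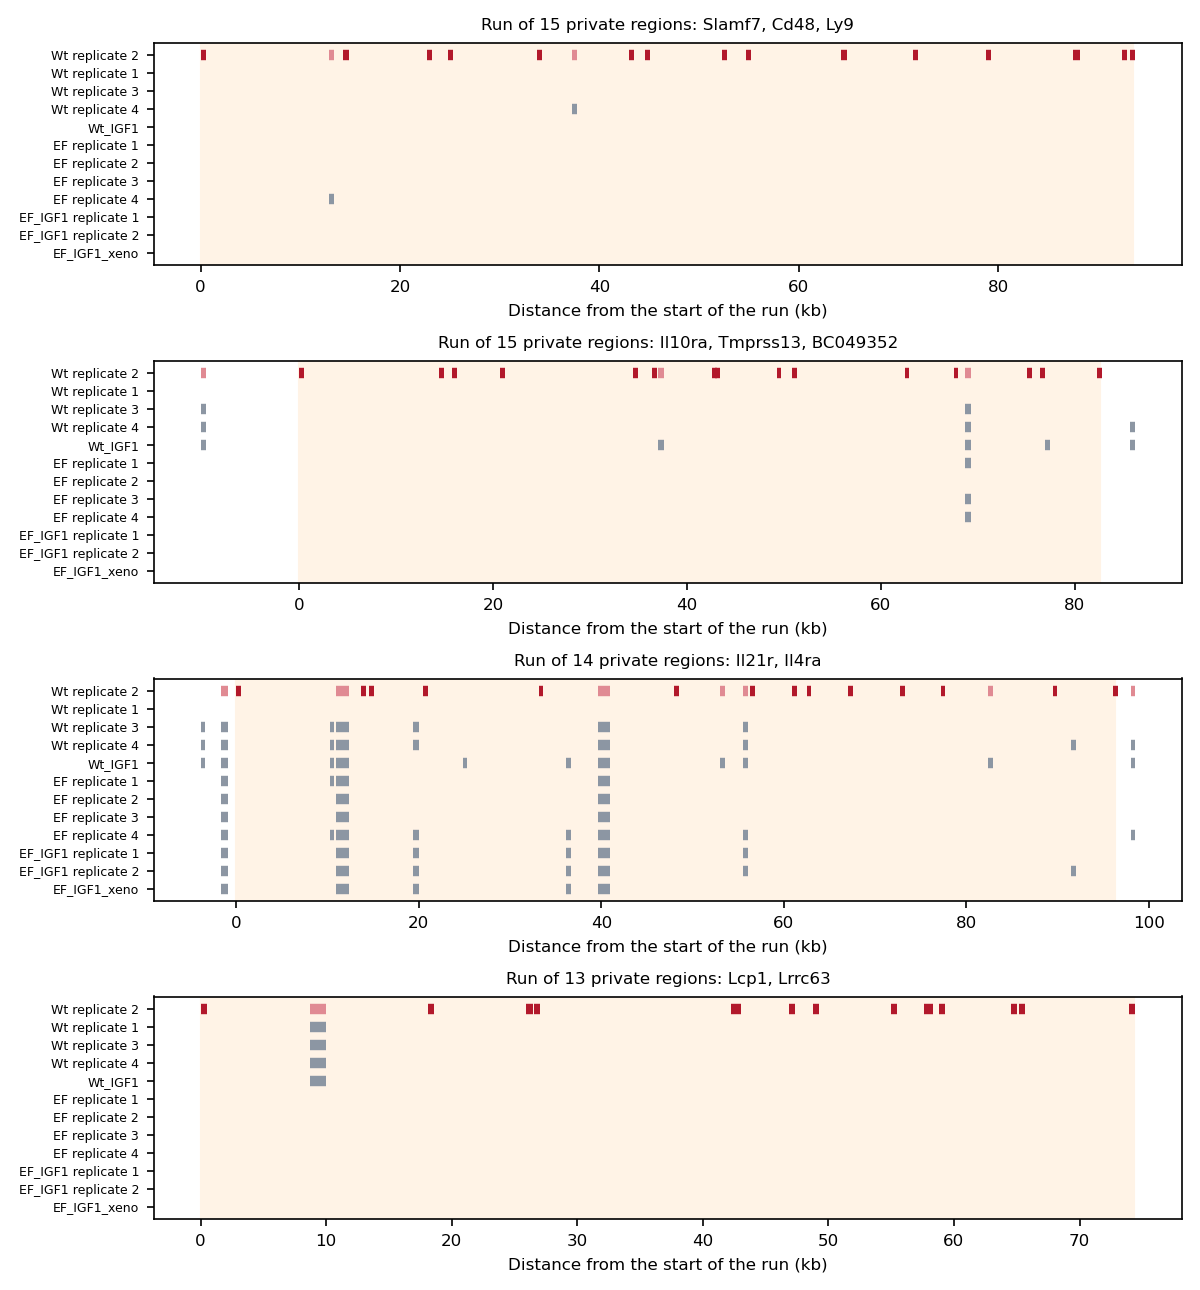
Peak regions along 4 runs of private regions, by distance in kb from the start of the run, with 1 line for each library. Dark red marks private regions, pale red other regions of Wt replicate 2, grey regions of the other libraries, and the shaded span is the run; the Slamf7 and Lcp1 spans are nearly empty outside Wt replicate 2, and the Il21r span holds sites open in most libraries between the private ones.

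The strongest private peaks were not at the marker genes. The highest −log10 p (97.6, fold 19.0, 100 reads at the summit) was at chr11:103281717-103282239, 14316 bp outside Map3k14, the kinase NIK of the NF-κB pathway. The next were within Sdhb, a subunit of succinate dehydrogenase (−log10 p 91.7), and within Rragc, a GTPase gene of the mTORC1 pathway (90.2). The others of the first 10, with −log10 p of 79.4 to 83.3, were at Vti1a, Emp1, Ccdc32, Trim36, Jph3, Polr1a and Lrrfip1. The median −log10 p of private regions was 18.3 at pan-leukocyte genes, 17.8 at macrophage and monocyte genes and also 17.8 at adipocyte genes, against 14.1 over all genes and 12.3 at mesenchymal stromal genes. The median fold gave another order, with 5.54 at pan-leukocyte genes, 6.39 at macrophage and monocyte genes, 6.05 over all genes and 5.84 at mesenchymal stromal genes.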

How the data were processed

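ATAC-seq peak lists of 12 mouse libraries were analysed, from 20000 to 50000 cells each and 50 bp single-end reads, per the labels' protocols. The authors called peaks for each library on its own, and the submitters' processing notes name MACS2 (with no version) and the build GRCm38.p3. Not given in the sources used here were the aligner, filters on reads, any shift of reads, caller options and read totals, which could change the sites that were called. Each deposited peak has a fold (a ratio to its local background), a p-value and a q-value, both as −log10, and a score, which is 10 times the −log10 q. These values are the authors' own and served only for ranking and filtering the peaks of 1 list and for describing them. Peaks on other sequences (23 to 43 per library) were left out.

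Peaks were merged in Python 3.11.15 with pandas 2.3.3, NumPy 2.4.6 and SciPy 1.17.1, and figures were drawn with matplotlib 3.10.9. Reads at a summit and its background were solved from the fold, assuming (reads + 1) / (background + 1), together with the p-value as a Poisson tail, within 0.001 of the deposited −log10 p, which solved 100% of peaks. The most common background of a library stood for its depth. Each region was given to the nearest of 21631 protein-coding genes of a RefSeq table (GRCm38.p6, used by name and by position on the same major build) within 100 kb. The merging and nearest-gene steps were checked on simulated peaks.

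Members and gene lists were chosen with earlier results of these data known, and no comparison was tested. A rule on gaps (Dixon's critical value of 0.829 for 4 libraries) only marked libraries far from the rest of their group. Named genes were the 4 markers, the 15 genes with most private regions, up to 4 genes per list, the 10 strongest regions and the longest runs. Unnamed gene models were counted only, and a gene that the rule names but the text omits is not reported here. Genes named beside these, for a region count of 0, an all-private gene, a promoter or a printed sequence, were chosen after their values were seen. The motif search planned for windows around peak summits was made in promoter windows instead, since no genome sequence was used. Alternatives changed the peak threshold, list length, overlap, libraries compared, distance to a gene, gene set and gap within a run.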

Additional observations from a re-analysis of the deposited data

Results flagged for a closer look

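Wt replicate 2 lay far above the other 3 Wt libraries in several counts of regions private to a single library, and each of the following was flagged because its gap to the nearest of the others took up most of the range of the 4. It had 2676 genes with 3 or more private regions and 2077 runs of 3 or more. Its private regions numbered 141 at the pan-leukocyte list, 114 at the macrophage and monocyte list, 27 at the dendritic cell list, 26 at the T and NK cell list, 16 at the megakaryocyte and platelet list, and 7 each at the mast cell and basophil list and the eosinophil list. By function, it had 200 at blood cell kinases and signalling, 127 at innate receptors, 122 at blood transcription factors, 72 at chemokine and cytokine receptors and 44 at leukocyte integrins and adhesion. The rule that chose the private regions used the calls behind these counts, so these marks are a description and no evidence of their own.

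Among the 4 EF libraries, EF replicate 2 lay far below the others in its private share, at 0.884% of its regions. EF replicate 4 lay far above the other EF libraries in private regions at the neutrophil list (2), the dendritic cell list (1) and the blood stem and progenitor list (12). Of 50 sets of 4 libraries examined, 18 were flagged, 14 in Wt and 4 in EF, and chance flags about 1 in 20 groups of continuous values. That rate does not hold for these small counts, where 1 library above 3 at 0 is always marked, so the number of marks is not read against it.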

How the results depend on the processing

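Leaving out each of the other 11 libraries in turn gave 22412 to 23477 private regions, a share of 38.1 to 39.9%, 436 to 455 at the blood cell lists, 114 to 118 at the macrophage and monocyte list, 25 to 27 at the mesenchymal stromal list, 2677 to 2815 genes with 3 or more, 2078 to 2237 runs and 5.67 to 6.09% near a gene end. With the 20000 strongest peaks of each library these values were 6570, 33.0%, 153, 46, 10, 484, 221 and 6.96%, and with the 7000 strongest, added after seeing the data, 1664, 23.8%, 42, 13, 3, 26, 6 and 8.59%; both lists are shorter by construction. Against the other 3 libraries of flowcell BSF_0654 alone, 35068 regions were private (58.2%), with 46 mesenchymal stromal, 4328 genes, 4091 runs and 8.9% near a gene end. Against the other 3 Wt libraries alone, the share was 47.2% and the share near a gene end 7.02%. The private share was 37.2% with a −log10 q of at least 5 in Wt replicate 2 only, 37.0% with windows of 250 bp around summits and 35.4% with peaks widened by 200 bp, where 4.78% lay near a gene end. Counting a gene only where a region lay inside it gave 256 blood cell, 56 macrophage and monocyte and 16 mesenchymal stromal regions and 1512 genes with 3 or more. A gap of 10 kb gave 1098 runs, and the nearest transcription start, added after seeing the data, gave 9 mesenchymal stromal regions. The cause of these moves was not tested beyond the construction of each setting. The planned comparison of motif windows around summits was not run, since no genome sequence was used. No paired analysis was possible because the regions come from 1 library and no comparison was tested. Read totals were not used here, and a site with no call in a library is one not called at its depth.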
